A study of Mus musculus with 23 samples.

Results

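BCL2 family proteins set the threshold at which a cell dies through its mitochondria. The anti-apoptotic members Bcl2, Bcl2l1 (BCL-XL), Bcl2l2 (BCL-W) and Mcl1 hold the effectors Bax and Bak1 in check, and the effectors, once active, open the outer mitochondrial membrane and release cytochrome c. The BH3-only members Bcl2l11 (BIM), Bid, Bad and Bik carry death signals to both, and in T cells BIM is known for removing self-reactive and spent cells, while BCL2 and MCL1 keep lymphocytes alive.

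These 10 genes were followed across 23 mouse Affymetrix 430A 2.0 arrays in 6 groups. A gene was counted through the probe sets whose platform annotation gives its symbol and no other, and its main probe set was the one with the highest mean log2 intensity over all arrays. By this rule 9 of the 10 genes were measured, by 29 of 22626 probe sets, among 12393 genes measured in the same way; Bax was not analysed here. Levels are log2 of intensities from Robust Multichip Average (RMA), and levels of different probe sets were not set against each other.

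The study asked how Snf5 (gene Smarcb1), a subunit that the SWI/SNF remodelling complexes share, and Ezh2, the histone H3 lysine 27 methyltransferase of Polycomb repressive complex 2, oppose each other in gene control, and which programs go wrong in Snf5-deficient tumours. Mouse embryonic fibroblasts (MEFs) of stage E13.5 were Snf5 Ezh2-deficient (3 arrays), Ezh2-deficient (3 arrays) or wild type (3 arrays in each of 2 control sets). The series' text says that the MEFs were inactivated conditionally; the labels name neither the Cre line nor its delivery. CD8+ T cells were purified from Snf5-deficient lymphomas (5 arrays) or from wild-type mice (6 arrays), with mice of both groups labelled 10 to 15 weeks old. The double-deficient MEFs have no Snf5-deficient counterpart among these groups, so an effect of losing Snf5 by itself cannot be told apart in the MEFs from one that needs both losses. Among the T cells every Snf5-deficient array is a lymphoma and no wild-type array is. An effect of losing Snf5 cannot be told apart there from other differences between a tumour and wild-type cells.

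The controls of the second MEF set repeated the hybridisations of the first, and were counted once, so that 9 distinct MEF arrays entered one fit and both MEF comparisons share all their controls. The targeted genes followed their labels. The log2 change of Ezh2 was -2.18 in Ezh2-deficient and -1.66 in Snf5 Ezh2-deficient MEFs, and that of Smarcb1 was -2.46 in Snf5 Ezh2-deficient MEFs and -3.65 in the lymphomas. Ezh2 was higher by 0.52 in Snf5 Ezh2-deficient than in Ezh2-deficient MEFs (adjusted p = 0.0081 by limma). It was also higher by 1.57 in the lymphomas than in wild-type CD8+ T cells (adjusted p = 0.0133 by limma). All 9 fibroblast markers were above the lowest 25% of values on every MEF array, with a list mean of 10.79 to 11.38, and 5 or 6 of 8 measured T cell markers lay in that lowest 25%. In bulk RNA, fewer cells of a type and less RNA per cell cannot be told apart.

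The T cell arrays were not alike within the wild type. Wild-type CD8+ arrays 1 and 6 stood apart from the other 4 and deviated together from the group mean over all probe sets (r = 0.778). Their mean over 5 measured B cell markers was 11.60 and 11.29, against 7.55 to 8.25 on the other wild-type arrays and 5.94 to 6.50 in the lymphomas. Their mean over 7 myeloid markers was 11.55 and 11.43, against 5.98 to 6.96 on the other wild-type arrays and 7.27 to 9.60 in the lymphomas. Summed over the list, linear intensity ran from 336 to 761 in the lymphomas and from 1262 to 17189 in the wild type for B cell markers, and for myeloid markers from 5489 to 17398 in the lymphomas and from 939.7 to 44286 in the wild type. T cell markers, 8 measured, averaged 11.08 and 10.52 on arrays 1 and 6, against 12.56 to 13.16 on the other wild-type arrays, and 11.50 to 12.82 in the lymphomas. In the lymphomas Cd2 ran from 6.76 to 12.27 and Cd5 from 6.46 to 12.47. On wild-type arrays 2 to 5 they ran from 12.71 to 13.66 and from 10.93 to 11.81. Cd3d ran from 13.53 to 13.84 in the lymphomas, within the 13.22 to 14.05 of those wild-type arrays. With all arrays limma called 1 of the 8 markers lower in the lymphomas and 0 higher. Markers of further cell types also differed. Over 2 measured natural killer cell markers arrays 1 and 6 averaged 6.88 and 6.82, against 4.26 to 5.52 on the other wild-type arrays and 3.87 to 4.19 in the lymphomas. The 4 CD4 T cell markers averaged 5.55 to 5.91 in the lymphomas, against 7.66, 6.83, 7.34 and 7.15 on wild-type arrays 1, 2, 5 and 6 and 5.87 and 5.88 on arrays 3 and 4. Member changes and most list counts in the lymphomas are therefore given with wild-type arrays 1 and 6 and without them, and the part of these other cell markers in the results was not tested. Leaving these arrays out did not even out the markers. By limma 4 of 7 myeloid markers were then higher and 3 of 5 B cell markers lower in the lymphomas. With all arrays 0 myeloid markers were called and 1 B cell marker was lower.

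**Figure D1:**
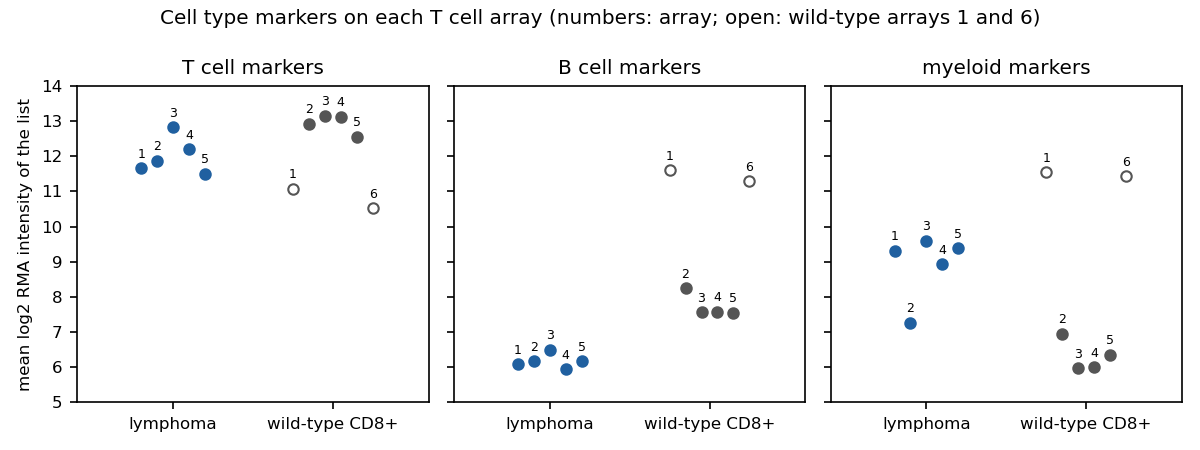
Mean log2 RMA intensity of the T cell, B cell and myeloid marker lists on each lymphoma array (left) and wild-type CD8+ array (right), with wild-type arrays 1 and 6 as open circles. Arrays 1 and 6 lie at 11.60 and 11.29 for the B cell list, where every lymphoma array is at or below 6.50.

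Promoter sequences were held by the RefSeq table (GRCm38.p6) for 9 of the 10 genes, in 13 windows of 300 bases that run from 250 before to 50 after an annotated start; Bik is named only. The windows of the genes with the largest changes in the MEFs or the lymphomas are shown because their composition differs. They were searched on both strands for a FOXO core (GTAAACA), a STAT core (TTCNNNGAA), an E-box (CACGTG), a GC box (GGGCGG) and an AP-1 core (TGACTCA), and capitals mark the matches. No 2 matches overlap in the windows printed. The first Bcl2l11 window lies on the plus strand at chr2:128125788-128126087, the Bid window on the minus strand at chr6:120916775-120917074 and the first Bcl2l1 window on the minus strand at chr2:152831679-152831978.
Bcl2l11: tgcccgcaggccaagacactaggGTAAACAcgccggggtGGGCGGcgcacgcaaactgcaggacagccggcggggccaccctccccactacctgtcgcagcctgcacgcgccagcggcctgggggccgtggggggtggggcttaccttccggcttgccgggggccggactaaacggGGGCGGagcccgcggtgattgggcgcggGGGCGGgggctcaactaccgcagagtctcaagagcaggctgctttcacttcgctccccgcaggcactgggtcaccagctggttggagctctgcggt
Bid: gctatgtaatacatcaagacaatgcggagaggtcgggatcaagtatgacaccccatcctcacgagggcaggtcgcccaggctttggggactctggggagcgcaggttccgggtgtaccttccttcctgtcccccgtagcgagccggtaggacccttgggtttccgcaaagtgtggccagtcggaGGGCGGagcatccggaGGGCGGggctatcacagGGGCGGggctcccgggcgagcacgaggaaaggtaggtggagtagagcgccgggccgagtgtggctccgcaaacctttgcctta
Bcl2l1: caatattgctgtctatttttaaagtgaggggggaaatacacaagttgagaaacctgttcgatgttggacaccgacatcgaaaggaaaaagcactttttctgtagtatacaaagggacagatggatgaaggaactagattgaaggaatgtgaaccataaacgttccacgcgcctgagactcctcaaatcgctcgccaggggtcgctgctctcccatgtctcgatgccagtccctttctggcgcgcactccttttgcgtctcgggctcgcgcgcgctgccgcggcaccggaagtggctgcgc

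The first Bcl2l11 window holds the FOXO core once, starting 227 bases before the annotated start, and the GC box 3 times. The second Bcl2l11 window holds 3 GC boxes and none of the other motifs. Over all 32851 RefSeq windows, 3.65% held the FOXO core and 35.7% held the GC box. The Bid window held 3 GC boxes and none of the other motifs, and its GC content was 63.3%, against 71.0% in the first Bcl2l11 window and 52.3% in the first Bcl2l1 window. None of the 3 Bcl2l1 windows held any of the 5 motifs, of which the STAT core was found in 8.3%, the E-box in 7.15% and the AP-1 core in 5.2% of all windows. A match is a string of letters and not a shown binding site, and no match says only that these letters are not in the window.

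In MEFs that had lost both Snf5 and Ezh2, the family shifted in both directions. Bcl2l11, Bcl2, Mcl1 and Bad were higher and Bid, Bcl2l1 and Bak1 were lower than in wild-type MEFs (limma, Benjamini-Hochberg adjusted p under 0.05 over all probe sets). These are 7 of 9 measured members, where 27.5% of all genes were called, 13.2% higher and 14.3% lower. The median log2 change over the 9 members was 0.23, against -0.0028 over all genes. Called members stood on both sides of the family: of the 4 anti-apoptotic genes 2 were higher and 1 lower, and of the 4 BH3-only genes 2 were higher and 1 lower. The groups did not overlap for 8 of the 9 members, where this held for 43.9% of all genes.

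Among the anti-apoptotic genes, Bcl2 had levels of 8.28, 8.23 and 8.14 in Snf5 Ezh2-deficient MEFs, against 7.74, 7.66 and 7.88 in wild-type MEFs. All 3 double-deficient arrays lay above all 3 wild-type arrays. Its log2 change was 0.46 (SE 0.082), a 1.37-fold rise with an adjusted p of 0.00232 by limma. Bcl2, the founding member of the family, has 1 probe set of its own on this array.

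Mcl1, a short-lived protein that cells must keep making to survive, had levels of 10.38, 10.47 and 10.50 in Snf5 Ezh2-deficient MEFs, against 10.03, 10.08 and 10.08 in wild-type MEFs. The groups were separate, with little spread in either. The change in log2 level was 0.38 (SE 0.076, adjusted p = 0.00397 by limma), a 1.31-fold rise. All 6 Mcl1 probe sets were higher, by 0.33 to 0.44.

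Bcl2l1, whose long form BCL-XL is the anti-apoptotic one, went the other way. Its levels were 9.51, 9.58 and 9.60 in Snf5 Ezh2-deficient MEFs, against 9.96, 9.81 and 9.93 in wild-type MEFs, again with no overlap. limma put the log2 change at -0.34 (SE 0.061, adjusted p = 0.00238 by limma), which is 1.26-fold lower. The other 3 Bcl2l1 probe sets changed by -0.29, -0.29 and -0.07 and were not called, with adjusted p of 0.0922, 0.0536 and 0.69. Probe sets cannot say which splice form, BCL-XL or the pro-apoptotic BCL-XS, the RNA encodes.

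Bcl2l2 had levels of 9.35, 9.36 and 9.33 in Snf5 Ezh2-deficient MEFs, against 9.05, 9.13 and 9.19 in wild-type MEFs. The groups did not overlap, but the log2 change of 0.23 (SE 0.076) had an adjusted p of 0.0514 by limma and was not called. In 7 of the 16 settings tried it was called, with adjusted p of 0.0265 to 0.0446. The other 3 Bcl2l2 probe sets had log2 changes of -0.03, -0.03 and -0.01.

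The effector Bak1, which sits in the outer mitochondrial membrane, had levels of 9.19, 9.25 and 9.40 in Snf5 Ezh2-deficient MEFs, against 9.56, 9.47 and 9.53 in wild-type MEFs. Every double-deficient array was below every wild-type array. The log2 change was -0.24 (SE 0.071, adjusted p = 0.0328 by limma). This call was lost when any wild-type array, or Snf5 Ezh2-deficient array 1 or 2, was left out, with adjusted p of 0.0598 to 0.113, and its second probe set had a log2 change of -0.07 with an adjusted p of 0.726.

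Of the BH3-only genes, Bcl2l11 moved most. BIM, its product, binds all anti-apoptotic members and can activate the effectors directly. Its levels were 8.84, 8.76 and 9.05 in Snf5 Ezh2-deficient MEFs, against 7.93, 8.02 and 7.95 in wild-type MEFs. The lowest double-deficient array was well clear of the highest wild-type array. Its log2 change was 0.92 (SE 0.075, adjusted p = 2.12e-05 by limma), a 1.89-fold rise, and all 5 Bcl2l11 probe sets were higher, by 0.75 to 1.19.

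Bid links death receptors to mitochondria, since caspase-8 cuts it into its active form. It had levels of 8.74, 8.71 and 8.95 in Snf5 Ezh2-deficient MEFs, against 9.47, 9.49 and 9.75 in wild-type MEFs. Every double-deficient array was below every wild-type array, the opposite of Bcl2l11. The change in log2 level was -0.77 (SE 0.089, adjusted p = 0.00017 by limma), which is 1.71-fold lower, and the second Bid probe set was lower by 0.79 with an adjusted p of 0.000119.

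Bad, a sensor that survival kinases such as AKT keep inactive by phosphorylation, had levels of 9.66, 9.76 and 9.64 in Snf5 Ezh2-deficient MEFs, against 9.43, 9.50 and 9.43 in wild-type MEFs. The groups did not overlap, and the log2 change was 0.23 (SE 0.059, adjusted p = 0.0154 by limma). Leaving out either of the wild-type arrays 1 and 3, or Snf5 Ezh2-deficient array 2, ended the call, with adjusted p of 0.0517 to 0.0601. The second Bad probe set had a change of 0.19 with an adjusted p of 0.0774.

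Bik, a BH3-only protein of the endoplasmic reticulum, lay in the lowest 25% of values on every MEF array. Its levels were 5.15, 5.17 and 4.89 in Snf5 Ezh2-deficient MEFs, against 4.89, 4.89 and 4.99 in wild-type MEFs, and the groups overlapped. The log2 change of 0.15 (SE 0.094) was not called, with an adjusted p of 0.308 by limma.

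**Figure D2:**
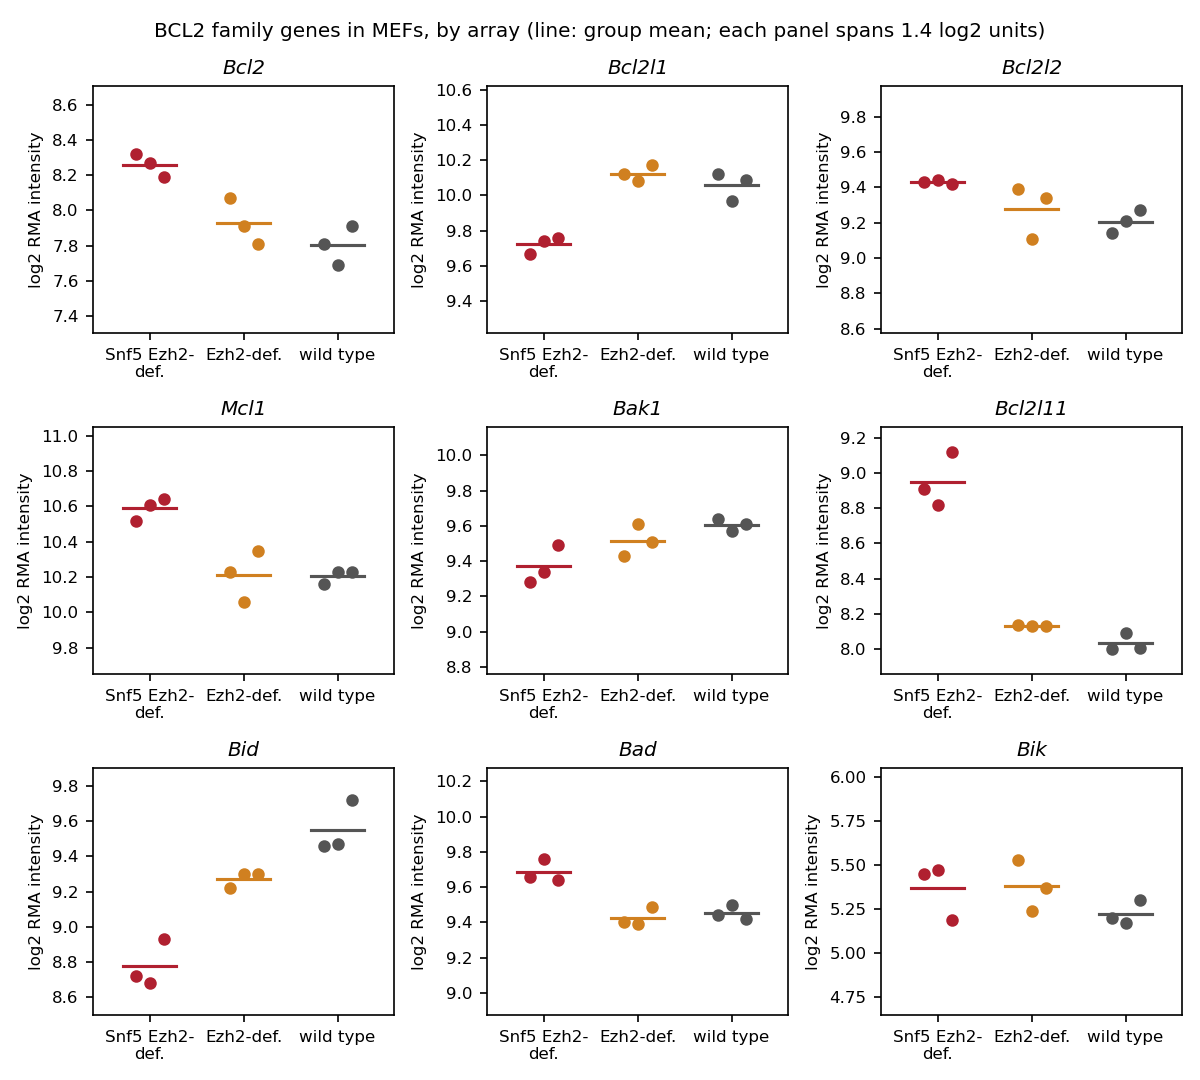
Log2 RMA intensity of the main probe set of each measured gene on each MEF array, in Snf5 Ezh2-deficient, Ezh2-deficient and wild-type MEFs from left to right, with group means as lines and the second set brought to the scale of the first. Bcl2l11 stands 0.92 higher and Bid 0.77 lower in Snf5 Ezh2-deficient than in wild-type MEFs, and no gene was called in Ezh2-deficient against wild-type MEFs.

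Loss of Ezh2 alone left no member past the threshold. None of the 9 members was called by limma in Ezh2-deficient against wild-type MEFs, where 3.49% of all genes were called, 1.02% higher and 2.47% lower. An unadjusted p under 0.05 by limma was reached by 1 member, and by 3138 of all 12393 genes. None of the 29 probe sets was called, where 3.14% of all probe sets were, and 3 had an unadjusted p under 0.05. The median log2 change of the members was 0.061, against 0.004 over all genes. Bid came nearest to the threshold. Its levels were 9.22, 9.30 and 9.30 in Ezh2-deficient MEFs, against 9.46, 9.46 and 9.72 in wild-type MEFs, with no overlap. limma put the log2 change at -0.28 (SE 0.089, 95% interval -0.47 to -0.079), with an adjusted p of 0.107 by limma.

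Bcl2l11 was the other member whose groups did not overlap in this comparison, where 33.7% of all genes did not. It had 8.14, 8.13 and 8.13 in Ezh2-deficient MEFs, against 8.00, 8.09 and 8.00 in wild-type MEFs, all within a narrow range. The log2 change was 0.10 (SE 0.075, adjusted p = 0.451 by limma), with a 95% interval of -0.069 to 0.27. Bcl2 had 8.07, 7.91 and 7.81 in Ezh2-deficient MEFs, against 7.84, 7.67 and 7.89 in wild-type MEFs, and Mcl1 had 10.23, 10.06 and 10.35, against 10.16, 10.23 and 10.23. Both genes' groups overlapped, with log2 changes of 0.13 and 0.0096. Bcl2l1 had 10.12, 10.08 and 10.17 in Ezh2-deficient MEFs, against 10.12, 9.98 and 10.08 in wild-type MEFs, a log2 change of 0.061 with overlapping groups. The remaining members, Bik, Bcl2l2, Bad and Bak1, had log2 changes of 0.16, 0.072, -0.027 and -0.092, each with overlapping groups.

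The direct comparison of both mutant lines tested whether their shifts differed. In Snf5 Ezh2-deficient against Ezh2-deficient MEFs, 6 of 9 members were called by limma, where 29.9% of all genes were called, 16.3% higher and 13.6% lower. The groups did not overlap for 7 members, where this held for 44.2% of all genes. Bcl2l11 was higher by 0.82 (SE 0.075, adjusted p = 4.59e-05), Mcl1 by 0.37 (adjusted p = 0.00477), Bcl2 by 0.33 (adjusted p = 0.0141) and Bad by 0.26 (adjusted p = 0.00889). Bid was lower, with a log2 change of -0.50 (SE 0.089, adjusted p = 0.00245), and so was Bcl2l1, with -0.40 (SE 0.061, adjusted p = 0.000937). The other 3 Bcl2l1 probe sets changed by -0.26, -0.24 and -0.23 and were not called (limma adjusted p = 0.113, 0.0998 and 0.157). All probe sets of Bcl2l11, Bid and Bad were called, and 5 of the 6 of Mcl1. Bcl2l2, Bak1 and Bik, with log2 differences of 0.15, -0.15 and -0.010, were not called, and their 95% intervals ran from -0.014 to 0.32, from -0.30 to 0.013 and from -0.22 to 0.20. The Bcl2 call was lost without Ezh2-deficient array 3 or Snf5 Ezh2-deficient array 1, with adjusted p of 0.0501 and 0.0514.

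**Figure D3:**
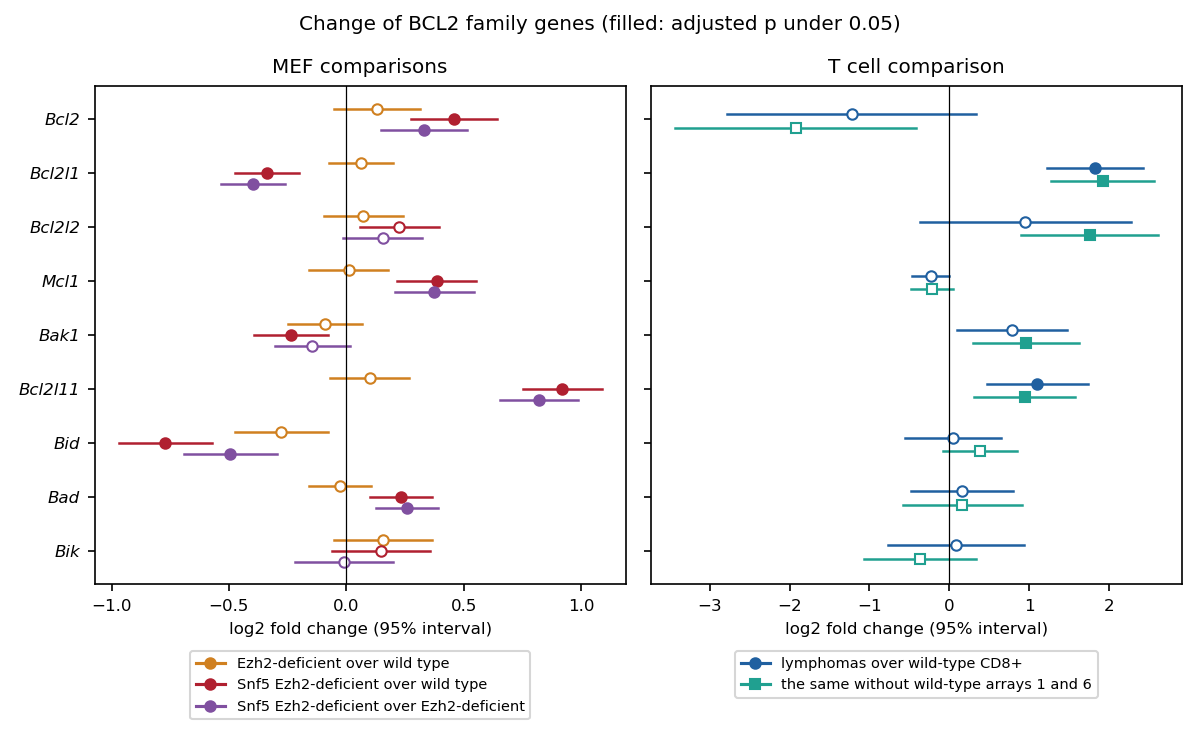
Log2 fold change of each measured gene with its 95% interval, for the MEF comparisons (left) and for lymphomas over wild-type CD8+ T cells with all arrays and without wild-type arrays 1 and 6 (right), with filled symbols where the adjusted p was under 0.05. Bcl2l11 is filled in both panels, and Bcl2l1 lies at -0.34 in Snf5 Ezh2-deficient MEFs and at 1.82 in the lymphomas.

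In the Snf5-deficient lymphomas, the anti-apoptotic Bcl2l1 and the pro-apoptotic Bcl2l11 were both higher than in wild-type CD8+ T cells, with no member called lower. These 2 calls among 9 members stand beside 16.8% of all genes called by limma, 9.13% higher and 7.71% lower. The median log2 change of the members was 0.16, against -0.066 over all genes. The groups did not overlap for 2 members, where this held for 12.8% of all genes. Without wild-type arrays 1 and 6, 4 members were called, with 26.4% of all genes called, and without wild-type arrays 3 and 4, which also deviated together (r = 0.712), 2 members were called, with 14.9% of all genes called.

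Bcl2l1 had levels of 9.94, 9.88, 10.01, 10.59 and 10.14 in the lymphomas, against a lowest of 7.29, a median of 8.40 and a highest of 8.94 on the 6 wild-type CD8+ arrays. On the main probe set every lymphoma array lay above every wild-type array, and array 6 was the highest of the wild type. Its log2 change was 1.82 (SE 0.273, adjusted p = 0.00161 by limma), a 3.54-fold rise, and it was 1.93 (adjusted p = 0.00147) without wild-type arrays 1 and 6. Of the other 3 Bcl2l1 probe sets, 2 were higher, by 3.27 and 2.68 (adjusted p = 0.00165 and 0.0106 by limma). On these 2, array 6 was the lowest of the wild type, at 4.32 and 4.94. The third probe set, whose mean level was 3.83 in the lymphomas and 3.57 in the wild type, had a change of 0.26 and was not called.

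Bcl2l11 had levels of 13.18, 13.74, 13.18, 13.67 and 13.08 in the lymphomas, against a lowest of 11.43, a median of 12.36 and a highest of 12.94 in wild-type CD8+ T cells. The groups did not overlap, although wild-type array 3 came within a short distance of the lowest lymphoma array. The change in log2 level was 1.11 (SE 0.287, adjusted p = 0.0254 by limma), a 2.15-fold rise. It was 0.95 (adjusted p = 0.0366) without wild-type arrays 1 and 6, and the call was lost without lymphoma array 2 (adjusted p = 0.0573) or lymphoma array 4 (adjusted p = 0.066).

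Of the 5 Bcl2l11 probe sets 4 were higher in the lymphomas, by 1.11, 1.78, 2.12 and 2.21, and the remaining one had a change of 0.84 with an adjusted p of 0.0527. The median lymphoma array placed the main Bcl2l11 probe set above 97.3% of the values on that array, and the median wild-type CD8+ array above 92.5%. In Snf5 Ezh2-deficient MEFs that share was 73.5%, against 59.9% in their wild-type controls. These shares rank a probe set within its own array, since MEF and T cell arrays were not on a common scale.

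Within the lymphomas, Bcl2 scattered most among the members. It had 8.54, 9.07, 6.08, 9.28 and 8.76 in the lymphomas, against a lowest of 7.95, a median of 9.59 and a highest of 11.29 in wild-type CD8+ T cells. The groups overlapped, with lymphoma array 3 far below the rest and wild-type arrays 1 and 6 at the low end of their group. The log2 change of -1.22 (SE 0.709, 95% interval -2.78 to 0.33) had an adjusted p of 0.273 by limma and was not called. Without wild-type arrays 1 and 6 it was -1.93, with an adjusted p of 0.0641.

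Mcl1 was among the brightest probe sets of the T cell arrays, above 96.6% of values on the median lymphoma array and 97.8% on the median wild-type array. Its levels were 13.03, 13.10, 13.02, 12.88 and 13.06 in the lymphomas, against a lowest of 13.06, a median of 13.28 and a highest of 13.33 in wild-type CD8+ T cells. Of the 5 lymphoma arrays 4 lay below every wild-type array, and array 2 lay within the wild-type range. limma put the log2 change at -0.23 (SE 0.105, adjusted p = 0.163 by limma), and all 6 Mcl1 probe sets had changes of -0.24 to -0.14 with none called. Without wild-type arrays 1 and 6 the change was -0.21 (adjusted p = 0.2).

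Bcl2l2 had levels of 9.77, 9.69, 8.97, 9.37 and 9.62 in the lymphomas, against a lowest of 6.87, a median of 8.39 and a highest of 10.47 in wild-type CD8+ T cells. The highest wild-type values, 10.47 and 9.80, were those of arrays 1 and 6, so the lymphomas lay inside the wild-type range only through these arrays. The log2 change was 0.96 (SE 0.601, adjusted p = 0.312 by limma), and 1.76 (SE 0.380, adjusted p = 0.0099) without them. The other 3 Bcl2l2 probe sets had changes of -0.02, -0.09 and -0.08 without these arrays and were not called.

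Bak1 had levels of 11.36, 11.16, 10.57, 10.64 and 10.95 in the lymphomas, against a lowest of 9.39, a median of 10.06 and a highest of 11.15 in wild-type CD8+ T cells. The groups overlapped through wild-type arrays 1 and 2. The log2 change of 0.79 (SE 0.316) was not called, with an adjusted p of 0.12 by limma. It was 0.96 (adjusted p = 0.0409) without wild-type arrays 1 and 6 and 0.99 (adjusted p = 0.0309) without array 1 alone.

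The other BH3-only genes showed no called difference. Bid had a lowest of 10.78 and a highest of 11.39 in the lymphomas, against 10.36 and 11.80 in wild-type CD8+ T cells, and its log2 change was 0.050 (95% interval -0.55 to 0.65). Bad ran from 10.03 to 11.04 in the lymphomas and from 9.39 to 10.98 in wild-type CD8+ T cells, with a log2 change of 0.16 (95% interval -0.48 to 0.80). Bik ran from 5.93 to 7.08 in the lymphomas and from 5.54 to 7.74 in wild-type CD8+ T cells, with a log2 change of 0.082 (95% interval -0.77 to 0.94). Without wild-type arrays 1 and 6 the change of Bik turned to -0.37 (adjusted p = 0.392), that of Bid was 0.39 (adjusted p = 0.184) and that of Bad 0.17 (adjusted p = 0.727). Without arrays 3 and 4 the change of Bid turned to -0.076 (adjusted p = 0.896). The wild-type range contained the lymphoma range for Bid and Bik with all arrays, and these intervals are several times wider than those in the MEFs.

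**Figure D4:**
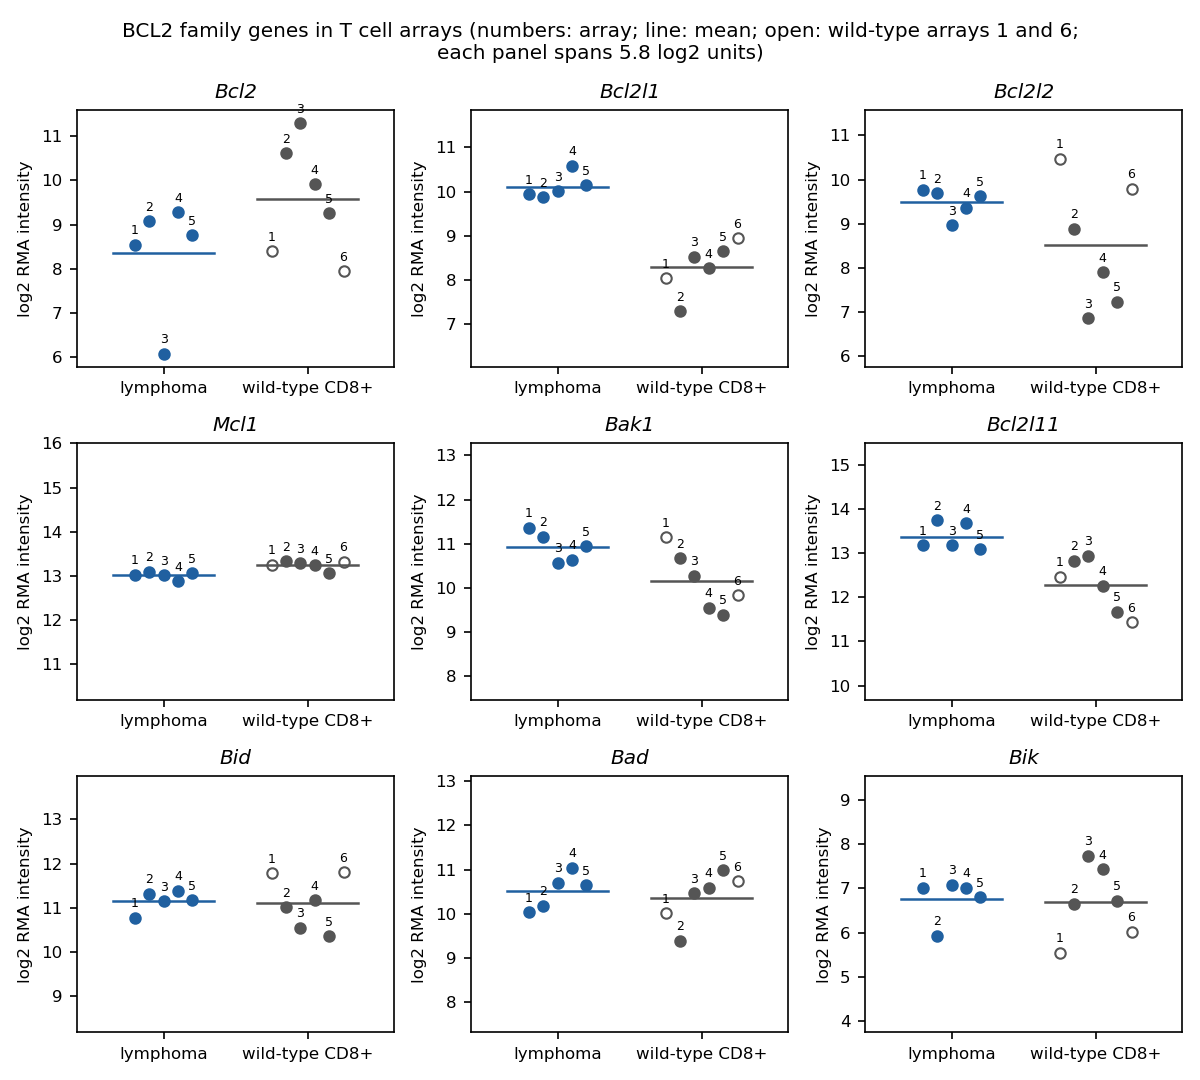
Log2 RMA intensity of the main probe set of each measured gene on each lymphoma array (left) and wild-type CD8+ array (right), with array numbers, group means as lines and wild-type arrays 1 and 6 as open circles. Bcl2l1 and Bcl2l11 are the genes whose groups do not overlap, and the 6.08 of Bcl2 on lymphoma array 3 lies far below the other lymphomas.

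**Figure D5:**
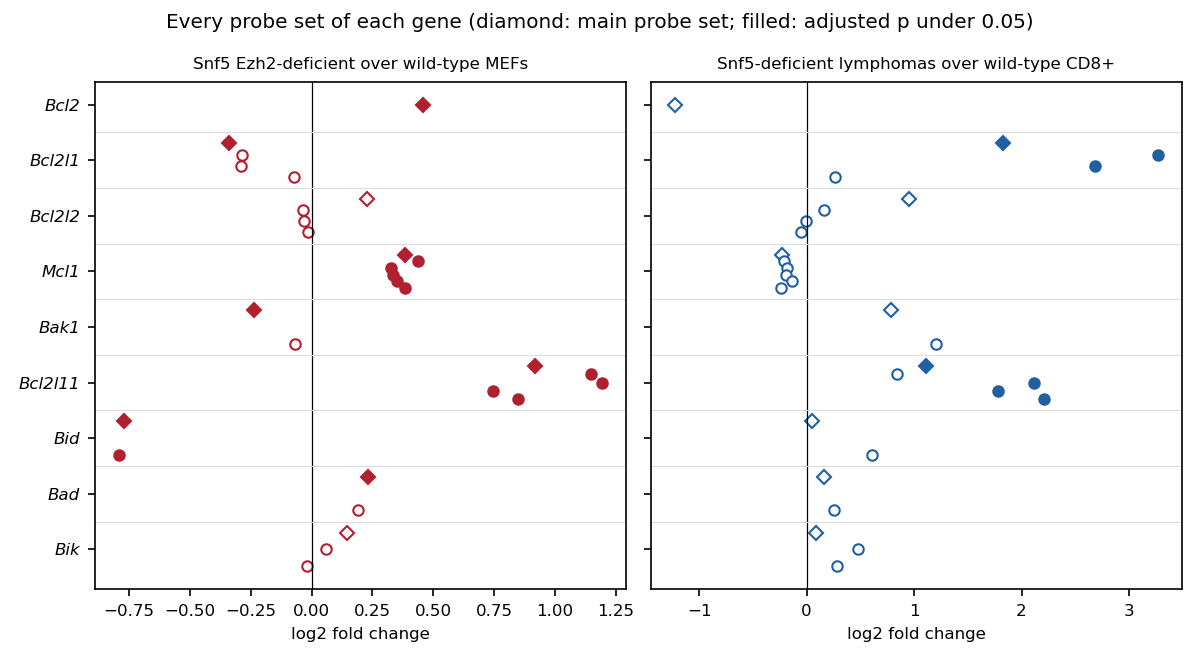
Log2 fold change of all 29 probe sets, grouped by gene, in Snf5 Ezh2-deficient over wild-type MEFs (left) and lymphomas over wild-type CD8+ T cells (right), with diamonds for main probe sets and filled symbols where the adjusted p was under 0.05. All 5 Bcl2l11 and all 6 Mcl1 probe sets are filled on the left, and 3 of 4 Bcl2l1 and 4 of 5 Bcl2l11 probe sets are filled on the right.

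Counted by probe set, 13 of the 29 were higher and 4 lower in Snf5 Ezh2-deficient against wild-type MEFs, which is 58.6%, where 25.9% of all probe sets were called. In the lymphomas 7 were higher and none lower, which is 24.1%, where 15.3% of all probe sets were called. Probe sets of one gene read the same RNA and are not separate evidence.

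Of the members, Bcl2l1 had the largest called change, and the genes with the most similar log2 changes over the Ezh2, Snf5 Ezh2 and lymphoma comparisons were Scamp5, Tmem159 and Slc35e4. Their root mean square differences from Bcl2l1 over these 3 changes were 0.031, 0.041 and 0.079. Scamp5 changed by 0.062, -0.38 and 1.86 in that order of comparisons, beside 0.061, -0.34 and 1.82 for Bcl2l1.

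Other BCL2 family genes were measured for 11 of 17 listed. The called counts of this and the following lists were not tested against the share of all genes called. That share was 3.49% in Ezh2-deficient against wild-type MEFs and 16.8% in the lymphomas. In Snf5 Ezh2-deficient against wild-type MEFs 2 were higher and 2 lower, where 27.5% of all genes were called. The median log2 change was -0.015, against -0.0028 over all genes. Pmaip1 (NOXA), which neutralises MCL1, was higher by 1.43 (SE 0.326, adjusted p = 0.00836 by limma), with 10.84 ± 0.30 in Snf5 Ezh2-deficient and 9.41 ± 0.79 in wild-type MEFs (SD, 3 arrays each). Bbc3 (PUMA), like NOXA a BH3-only target of p53, was higher by 0.62, with an adjusted p of 0.000506 by limma, while the effector-like Bok had a change of -0.60 (adjusted p = 0.000653). Bbc3 and Bok were also called against Ezh2-deficient MEFs, with 0.61 and -0.51. In Ezh2-deficient against wild-type MEFs, Bcl2l13 alone was called, with -0.36 (adjusted p = 0.0235), and in the lymphomas Bcl2l15 alone, with 11.31 ± 1.14 in the lymphomas (SD, 5 arrays) and 7.95 ± 1.36 in wild-type CD8+ T cells (SD, 6 arrays), a 10.3-fold rise (adjusted p = 0.00879). Without wild-type arrays 1 and 6 the Bcl2l15 rise was 17.3-fold (adjusted p = 0.00158) and Bcl2l14 was higher as well, by 1.12 (adjusted p = 0.00275). Without arrays 3 and 4 the Bcl2l15 rise was 6.62-fold (adjusted p = 0.0328), and Bbc3 was higher by 1.21 (adjusted p = 0.0241).

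Apoptosome and caspase genes, 14 of 16 measured, include genes that act after the mitochondria open, and also caspase-8, which acts before that through Bid. In Snf5 Ezh2-deficient against wild-type MEFs 4 were higher and 1 lower, where 27.5% of all genes were called, with a median change of 0.059. Dffb, the nuclease that cuts DNA in dying cells, was higher by 0.90, Parp1, a DNA break sensor and caspase target, by 0.53, and Apaf1, the apoptosome scaffold, by 0.45. Dffb was dim, in the lowest 25% of values on 1 of the 6 arrays compared. Against Ezh2-deficient MEFs 6 genes of the list were higher and 1 lower, where 29.9% of all genes were called. Dffb was at 0.97, with 2 of 6 arrays in the lowest 25%. Parp1 was at 0.68 and Casp9, the initiator caspase of the apoptosome, at 0.51. Casp4 alone was called in Ezh2-deficient against wild-type MEFs, with 0.66 (adjusted p = 0.00701 by limma).

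In the lymphomas 3 genes of this list were lower and none higher, where 16.8% of all genes were called. The median change was 0.070, against -0.066 over all genes. Without wild-type arrays 1 and 6, 3 were higher and 1 lower, where 26.4% of all genes were called, and the median change was 0.15. Apaf1 was then higher by 1.02 (adjusted p = 0.0106 by limma), Cycs (cytochrome c) by 0.61 (adjusted p = 0.0277) and Aifm1 by 0.54 (adjusted p = 0.0319). Casp8, the initiator caspase of death receptors, had 10.96 ± 0.095 in the lymphomas (SD, 5 arrays) and 11.72 ± 0.29 in wild-type CD8+ T cells (SD, 6 arrays), a change of -0.76 (adjusted p = 0.00803 by limma). Casp9 had a change of -0.73, and its call was lost without wild-type arrays 1 and 6 (adjusted p = 0.0695). Casp12, the other called gene, lay in the lowest 25% of values on all 11 T cell arrays, and its call was lost without arrays 1 and 6 as well (adjusted p = 0.0717). Casp8 was called without these arrays too, with -0.93.

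Inhibitor of apoptosis (IAP) genes and their antagonists were measured for 8 of 9 listed. Birc5 (survivin), a mitotic IAP, was lower in Ezh2-deficient than in wild-type MEFs, with a change of -0.59 (adjusted p = 0.0395 by limma), and was higher in Snf5 Ezh2-deficient than in Ezh2-deficient MEFs, by 0.66. Birc2 (cIAP1) was higher in Snf5 Ezh2-deficient MEFs, by 0.42 against wild type and 0.54 against Ezh2-deficient MEFs. No gene of the list was called by limma in the lymphomas with all arrays. There 2 of them had an unadjusted p under 0.05, as did 3942 of all 12393 genes. Without wild-type arrays 1 and 6, 2 were higher, Htra2 by 0.74 and Birc2 by 0.59, where 26.4% of all genes were called.

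Death receptor pathway genes, 11 of 12 measured, feed into Bid through caspase-8. Of these, 3 were higher and 3 lower in Snf5 Ezh2-deficient than in wild-type MEFs, where 27.5% of all genes were called. The list's median log2 change was -0.14. Fas, the receptor of FAS ligand, had 9.29 ± 0.095 in Snf5 Ezh2-deficient and 7.41 ± 0.028 in wild-type MEFs (SD, 3 arrays each), a 3.67-fold rise with an adjusted p of 8.99e-06 by limma. The adaptor Tradd and the necroptosis kinase Ripk3 had changes of -0.38 and -0.32. Against Ezh2-deficient MEFs Fas was higher by 1.38, Daxx by 0.29, and Tnf had a change of -0.27. No gene of the list was called by limma in Ezh2-deficient against wild-type MEFs, where 3 had an unadjusted p under 0.05. The same held there for 3138 of all 12393 genes.

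In the lymphomas Fas went the other way, with 8.24 ± 0.73 in the lymphomas (SD, 5 arrays) and 10.43 ± 1.51 in wild-type CD8+ T cells (SD, 6 arrays). Its change of -2.20 had an adjusted p of 0.0494 by limma and lost its call without wild-type arrays 1 and 6 (-2.45, adjusted p = 0.0511) or 3 and 4 (-1.42, adjusted p = 0.131). Tnfrsf1a, the main TNF receptor, had a change of -2.09 (-1.51 without wild-type arrays 1 and 6), and the TRAIL receptor Tnfrsf10b was higher by 1.66 (1.48 without arrays 1 and 6), and both were called either way. Without these arrays the list had 1 gene higher and 2 lower, Tnfrsf1a and Daxx (-1.12), where 26.4% of all genes were called.

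Cytokine survival pathway genes, 16 of 17 measured, include receptors whose signals keep Bcl2 and Bcl2l1 expressed in T cells. In the lymphomas 3 were higher and 4 lower, where 16.8% of all genes were called, with a median change of -0.16. Without wild-type arrays 1 and 6, 3 were higher and 5 lower, where 26.4% of all genes were called. The median change was then -0.23. Il2ra, the high-affinity chain of the interleukin-2 receptor, had 10.53 ± 0.78 in the lymphomas (SD, 5 arrays) and 6.70 ± 1.35 in wild-type CD8+ T cells (SD, 6 arrays), a 14.2-fold rise (adjusted p = 0.0025 by limma). Il7r, the receptor of resting T cells for interleukin-7, had a change of -1.80 (adjusted p = 0.0222) and Il6ra one of -2.39 (adjusted p = 0.021). These 3 were called without wild-type arrays 1 and 6, and the Il7r and Il6ra calls were lost without wild-type arrays 3 and 4, with adjusted p of 0.0805 and 0.07.

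The cytokine list had 2 genes higher and 4 lower in Snf5 Ezh2-deficient than in wild-type MEFs (median change 0.065), where 27.5% of all genes were called. The kinase Jak1 was at 0.49, Il4ra at -0.73 and the survival kinase Pim1 at -0.38. Against Ezh2-deficient MEFs 4 were higher and 1 lower, where 29.9% of all genes were called. Il6st was at 0.49, Jak1 at 0.41 and Akt1, which phosphorylates BAD, at -0.28. None was called by limma in Ezh2-deficient against wild-type MEFs, where 1 had an unadjusted p under 0.05. Over all genes 3138 of 12393 had one.

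Regulators of the family were measured for 19 of 21 listed. The double-deficient MEFs had 4 of them higher and 2 lower than wild-type MEFs, where 27.5% of all genes were called. The list's median change was 0.080. Fbxw7, a ubiquitin ligase subunit that marks MCL1 for degradation, was higher by 0.77 (adjusted p = 8.94e-05 by limma), Usp9x, which removes ubiquitin from MCL1, by 0.39, and Myc had a change of -0.63. Against Ezh2-deficient MEFs 5 were higher and 1 lower, where 29.9% of all genes were called. Fbxw7 was at 0.56, Usp9x at 0.46 and Myc at -0.54. Foxo1 was the called gene of the list in Ezh2-deficient against wild-type MEFs, with -0.24 (adjusted p = 0.0468).

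In the lymphomas 1 regulator was higher and 2 lower, where 16.8% of all genes were called, with a median change of 0.27. Without wild-type arrays 1 and 6, 2 were higher and 3 lower, where 26.4% of all genes were called. The median change was then 0.32. Foxo3, a transcription factor known to induce BIM, had 11.19 ± 0.37 in the lymphomas (SD, 5 arrays) and 12.38 ± 0.32 in wild-type CD8+ T cells (SD, 6 arrays), a change of -1.20 (adjusted p = 0.00369 by limma). Ddit3 (CHOP), a stress factor also known to induce BIM, had a change of -1.56 (adjusted p = 0.00561). Rel, an NF-kappaB subunit known to induce BCL-XL in lymphocytes, was higher by 1.32 (adjusted p = 0.0442), and this call was lost without wild-type arrays 1 and 6 (adjusted p = 0.0983) or 3 and 4 (adjusted p = 0.0783). Foxo3 and Ddit3 were called without arrays 1 and 6 as well, with -1.23 and -1.91.

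Mitochondrial channel, fission and fusion genes were measured for all 12 listed. Of these, 1 was higher and 4 were lower in Snf5 Ezh2-deficient than in wild-type MEFs (median change -0.12), where 27.5% of all genes were called. The fusion genes Mfn1 and Mfn2 were at 0.31 and -0.31, and Ppif (cyclophilin D) was at -0.38. Against Ezh2-deficient MEFs none was higher and 3 were lower, where 29.9% of all genes were called. These were Mfn2 with -0.38, Ppif with -0.32 and Vdac3 with -0.19. None was called by limma in Ezh2-deficient against wild-type MEFs, where 4 had an unadjusted p under 0.05, or in the lymphomas, where 2 did. Of all 12393 genes, 3138 had such a p in the Ezh2 comparison and 3942 in the lymphomas.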

How the data were processed

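Affymetrix mouse arrays were hybridised with total RNA, and the authors preprocessed the scans with Robust Multichip Average, per the labels' protocols, which name no software version. The deposited files hold linear RMA intensity, although the design had taken them for log2 values, so log2 was taken here. Tests covered 22626 probe sets, with 64 controls set aside. Of the tested probe sets, the platform annotation gave 20380 one gene, 691 several and 1555 none. Genes were counted through the probe set with the highest mean over all arrays.

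The second set of wild-type MEF arrays matched the first by number, with an SD of 0.0219 to 0.0241 over 5639 probe sets above a mean log2 of 9 after an offset per probe set, against 0.137 to 0.152 for other numbers. Each control was therefore averaged over both summaries after the second set was shifted by that offset, giving 9 MEF arrays. Group means were compared with limma 3.58.1 in R 4.3.3 (lmFit, eBayes), with Benjamini-Hochberg adjustment over all probe sets and a threshold of 0.05, leaving 6 residual degrees of freedom in the MEF fit and 9 in the fit of the 11 T cell arrays. The median standard error was 0.077 in the MEFs and 0.24 in the T cells. Arrays give no counts, so their number and spread limit the precision. The labels call the arrays biological replicates without naming separate animals or cultures, so p-values measure the spread between these samples, which may be technical.

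The members and gene lists were chosen with earlier results of these data known. All members were named, with up to 3 called genes of largest change per list and comparison, the 3 genes most like the member of largest change, and Ezh2 and Smarcb1. On simulated data a log2 change of 1 was recovered for 96% of 50 changed probe sets in the Ezh2, 90% in the Snf5 Ezh2 and 44% in the lymphoma comparison. Fewer probe sets were changed there than were called in the data, so these shares may be too low. Alternatives covered scaling, an offset, a filter on dim probe sets, other fits, the replicate block and leaving out arrays. Leaving out wild-type CD8+ arrays 1 and 6 or 3 and 4 was chosen after seeing the data. Arrays of the same number did not deviate together in every MEF pair. The r was -0.028 to 0.149 between Ezh2-deficient and wild-type MEFs, and -0.04 to 0.028 between Snf5 Ezh2-deficient and wild-type MEFs. It was -0.217 to 0.109 between both mutant lines. Between lymphomas and wild-type CD8+ T cells all 5 pairs were positive, with r of 0.08 to 0.312. The numbers were not taken as pairs in the main fits, and the replicate block used them.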

Additional observations from a re-analysis of the deposited data

Results flagged for a closer look

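On the T cell arrays 18 groups of values, 9 genes in both groups, were screened for a single array far from the rest by Dixon's 95% criterion, which chance passes in about 1 in 20 groups, and 3 were found. Bcl2 on lymphoma array 3 was lowest at 6.08, with 77% of the group's range lying between it and its nearest neighbour. Bik on lymphoma array 2 was lowest at 5.93. Mcl1 on wild-type CD8+ array 5 was lowest at 13.06, in a group that spans a small range.

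The effects of both MEF lines against the same wild type differed for 6 genes by the direct limma contrast of main probe sets. For Bcl2l1 no other probe set was called. The difference, Snf5 Ezh2-deficient minus Ezh2-deficient, was 0.82 for Bcl2l11, 0.37 for Mcl1, 0.33 for Bcl2, 0.26 for Bad, -0.40 for Bcl2l1 and -0.50 for Bid. Their causes were not tested.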

How the results depend on the processing

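No value of a member reversed its call under 16 settings for each MEF line against wild type and 21 for the lymphomas. The count of called members was 0 in every setting of the Ezh2 comparison, and stayed within 5 to 8 in the Snf5 Ezh2 comparison (7 as reported; 5 to 7 with one array left out) and 5 to 6 in the direct comparison of both lines (6 as reported). In the lymphomas it was 2 as reported, 1 to 3 with one array left out, where it was 1 without lymphoma array 2 or 4, and 4 without wild-type CD8+ arrays 1 and 6. For single members, 143 of 143 values in the Ezh2 comparison kept their side of the threshold. So did 127 of 143 in Snf5 Ezh2-deficient against wild-type MEFs, 123 of 125 between both lines and 184 of 189 in the lymphomas. The mean over all probe sets ended the Bak1 call in Snf5 Ezh2-deficient MEFs (-0.15, adjusted p = 0.0868 by limma). The replicate block changed no call count of the members (0, 7, 6 and 2), while over all genes it called 213 in the Ezh2 comparison, where 432 were called without it, 3233 in the Snf5 Ezh2, 3423 in the direct and 2072 in the lymphoma comparison. The filter on dim probe sets removed Bik in the MEFs, leaving 8 members. A log2 change of 0.5 was recovered on simulated data for 72% of changed probe sets in the Snf5 Ezh2 comparison and 2% in the lymphomas. The simulation changed 50 probe sets per size, far fewer than were called in these comparisons of the data. Its adjusted threshold was therefore stricter, and these shares may be too low. Small changes in the lymphomas may be missed, although some were called, such as Aifm1 at 0.54 without wild-type arrays 1 and 6. The causes of the shifts between settings were not tested.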
